A study of Mus musculus with 3 samples.

Results

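The genes of the proteasome were examined in primary keratinocytes of wild-type (WT) and RASSF9-/- mice, measured on Affymetrix Mouse Genome 430 2.0 microarrays. Genes were chosen by name. Every symbol that starts with Psma, Psmb, Psmc, Psmd, Psme, Psmf or Psmg followed by a digit was taken, on probe sets that the platform annotation pairs with that symbol alone, and Psmb8, Psmb9 and Psmb10 were left out. Where a gene had several probe sets, the one with the highest mean log2 signal over the 3 arrays was used. This gave 46 genes of the 18193 with such a probe set. The rule itself used no difference between arrays, but the genes were chosen with earlier results of these data known. The symbols reach beyond the constitutive particle itself: 31 of the 46 encode its subunits, 14 of the core and 17 of the cap. Another 7 encode assembly factors and 4 encode activators or an inhibitor of the core. The last 4 are Psma8 and Psmb11, subunits of other tissues, and Psmc3ip and Psme3ip1, which fit the rule but encode no subunit. Psme2 was not included, because its probe set is paired with 2 symbols.

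The WT group was 1 array from cultured epidermal keratinocytes of 1 wild-type neonatal ICR mouse. The RASSF9-/- group was 2 arrays from independent samples of neonatal ICR mice homozygous for a RASSF9 deletion. That allele comes from a single mouse line, in which inserted DNA of a viral LMP1 transgene with its own promoter replaced part of a RASSF9 intron, so that every RASSF9-/- sample also carried the insertion. All cells were kept in defined serum-free keratinocyte medium with supplements. The sample descriptions give 24 h of culture for WT and 48 h for RASSF9-/-, whereas the methods give the same length for all samples. If the descriptions hold, genotype and culture time cannot be told apart. With 1 WT array, the spread within a group was seen only between both RASSF9-/- arrays, and every difference below shares that WT array. The array names in the descriptions carry the same date for WT and RASSF9-/- array 1 and another date for RASSF9-/- array 2.

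The proteasome is the barrel-shaped protease that degrades proteins tagged with ubiquitin chains. Its core is a stack of outer alpha rings, which gate the entrance, and inner beta rings, which hold the proteolytic sites. Its cap recognises the ubiquitin chain, removes it, and unfolds the substrate with a ring of ATPases. Interferon exchanges the catalytic beta subunits for inducible ones, encoded by Psmb8, Psmb9 and Psmb10, and adds an activator cap encoded by Psme1 and Psme2. In keratinocytes, as in other dividing cells, the proteasome removes cyclins, cyclin-dependent kinase inhibitors and p53.

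The Rassf9 probe set had a MAS5 signal, a linear intensity in array units, of 478.1 on the WT array, 59.6 on RASSF9-/- array 1 and 120.2 on RASSF9-/- array 2. Array 1 lay under 78.4, the highest signal of any of 15 bacterial control probe sets on the 3 arrays, so only 1 of the 2 RASSF9-/- arrays measured Rassf9 above that background. With array 1 set to this background value, the WT signal was at least 4.93-fold higher. The fit on the signals as measured gave a log2 difference of -2.50 (adjusted p = 0.530, limma, Benjamini-Hochberg adjustment over 11089 genes). All 8 keratinocyte markers, among them Krt5 and Krt14, lay above background on every array, with summed signals of 133708, 103265 and 127762 on WT and RASSF9-/- arrays 1 and 2. Krt5 and Krt14 make up most of these sums, and 5 of the 8 markers were below WT on both RASSF9-/- arrays (median log2 difference of -0.22). Trp63, the p63 factor of basal keratinocytes, had signals of 3239, 1460 and 1543 (log2 difference of -1.11, adjusted p = 0.689, limma), and Perp had 25071, 13007 and 20724. The 6 melanocyte markers were also above background on all arrays (sums of 28210, 24141 and 33895). Summed signals were 1320, 1035 and 811 for 6 fibroblast markers, 217.4, 683.4 and 281.5 for 6 leukocyte markers, 257.1, 295.1 and 332.6 for 5 endothelial markers and 36.9, 105.6 and 71.4 for the 2 of 4 adipocyte markers with a probe set. In such bulk samples, fewer cells of a type and less RNA per cell cannot be told apart. As a sign of RNA integrity, the 3' control probe set was divided by the 5' one; this ratio was 0.832 to 0.939 for Gapdh and 1.37 to 1.43 for beta-actin.

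Of the 46 proteasome genes, 43 passed the signal filter and were tested, and all 43 lay above the bacterial background on each array. Their geometric mean signals ran from 680.1 for Psmd9, a chaperone of the cap's base, to 16730 for Psmb7, the subunit with the trypsin-like site. Probe sets differ in how well they hybridise, so no level was compared between genes. The 3 genes under the filter were not tested. Psma8, an alpha subunit of the testis, had signals of 23.6 on WT and 4.3 and 2.8 on the RASSF9-/- arrays. Psmb11, the catalytic subunit of thymic epithelium, had signals of 3.5 on WT and 100.7 and 19.5 on the RASSF9-/- arrays. Psmc3ip, a factor of meiotic recombination, had signals of 65.3 on WT and 48.5 and 132.8 on the RASSF9-/- arrays. Each of these genes was under background on at least 1 array of every group, and no fold was computed for them.

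None of the 43 tested proteasome genes passed an adjusted p of 0.05 between RASSF9-/- and WT in limma, in either direction, against 9 of all 11089 genes (0.0812%), all of them higher (0.0812% higher and 0% lower). The smallest adjusted p among proteasome genes was 0.778, for Psmg1. Psmg1 was also the 1 gene of the 43 (2.33%) with an unadjusted p under 0.05, where 615 of all genes (5.55%) had one. The t-test named in the study's methods gave 0 proteasome genes after Benjamini-Hochberg adjustment and 2, Psma6 and Psmd1, at an unadjusted p under 0.05. The standard errors of the log2 differences, which rest on 1 residual degree of freedom and on the spread of all genes, were between 0.30 and 0.49, so the 95% intervals reached well over 0.5 to either side of most estimates. A missed threshold here does not show equal expression.

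**Figure D1:**
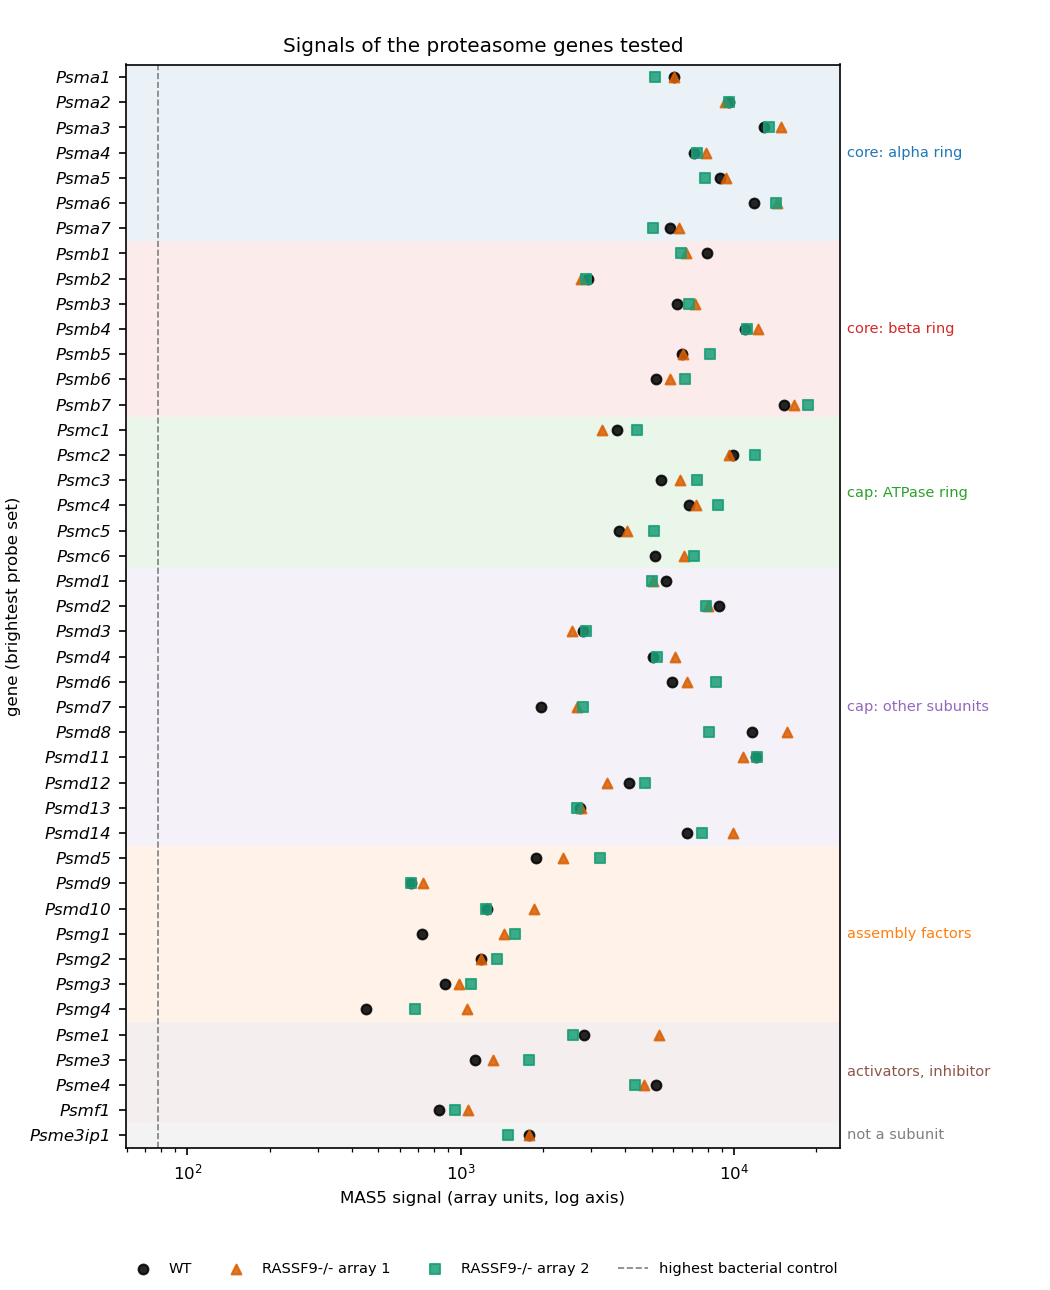
MAS5 signal (array units, log axis) of each of the 43 proteasome genes tested, 1 row per gene in the order of its role, with a circle for the WT array, a triangle for RASSF9-/- array 1 and a square for RASSF9-/- array 2. The dashed line is the highest bacterial control, 78.4, and every symbol lies to its right; for most genes the 3 symbols lie close together.

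The signals lay close to WT. In 38 of the 43 genes (88.4%), both RASSF9-/- arrays were under 1.5-fold from WT, a size set without a test, against 5891 of the 11089 genes tested (53.1%). All 43 proteasome genes also passed a filter at the 75th percentile of signal, a percentile taken over probe sets and not over genes. Among the 6827 genes above that filter the share under 1.5-fold was 61.6%. That filter still reaches well below the signals of most subunits of core and cap, and no set matched for signal was compared. The median standard error was 0.46 in all genes, 0.40 above that filter and 0.34 in proteasome genes. The part of signal level in these shares was not tested. On array 1 alone, 3 of the 43 (6.98%; Psme1, Psmg1 and Psmg4) were at least 1.5-fold from WT, against 27% of all genes. On array 2 alone, 4 (9.3%; Psmd5, Psme3, Psmg1 and Psmg4) were, against 35.2% of all genes. The RASSF9-/- arrays were at least 1.5-fold from each other in 3 of the 43 (6.98%; Psmd8, Psme1 and Psmg4), against 32% of all genes. The median absolute log2 difference from WT was 0.18 in proteasome genes and 0.32 in all genes, and between both RASSF9-/- arrays it was 0.18 and 0.38. These shares and medians are descriptions and were not tested.

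In direction, 23 of the 43 genes (53.5%) were above WT on both RASSF9-/- arrays, against 33.6% of all genes. Another 6 (14%), Psma1, Psmb1, Psmb2, Psmd1, Psmd2 and Psme4, were below WT on both, against 32.7%. The remaining 14 (32.6%) lay on opposite sides of WT, against 33.7%. The median log2 difference was 0.13 over the proteasome genes, with 0.14 on each RASSF9-/- array, and -0.01 over all genes. When all probe sets of a gene were averaged in place of the brightest, the median was 0.04 (42 genes), and 16 genes were above WT on both arrays. The share over all genes was not computed under that rule. The lean to higher signal thus depended on the choice of probe sets. At least 1.5-fold above WT on both arrays were 2 genes (4.65%), Psmg1 and Psmg4, against 7.08% of all genes, and 0 were at least 1.5-fold below on both, against 6.19%.

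**Figure D2:**
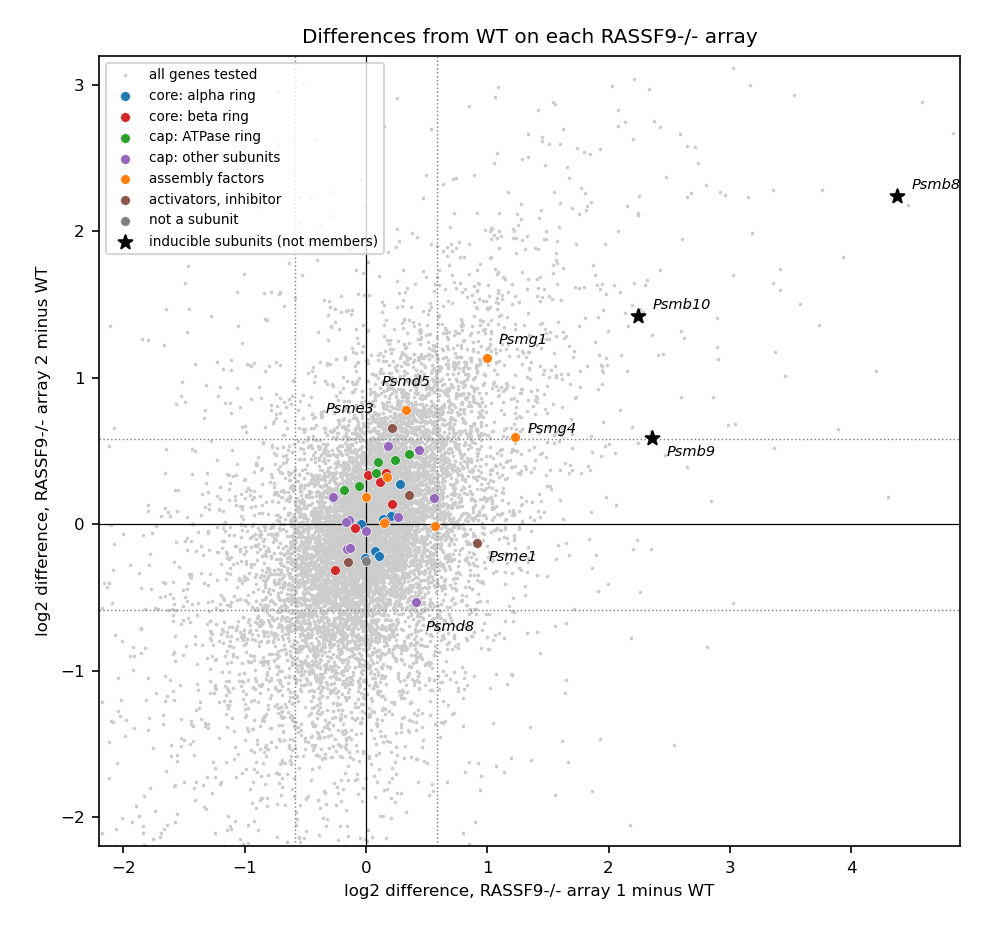
Log2 difference from WT on RASSF9-/- array 2 (vertical axis) against that on RASSF9-/- array 1 (horizontal axis), for all genes tested (grey points; 230 lie outside the axes), the proteasome genes coloured by role and the inducible subunits, which are not members (stars). Dotted lines mark 1.5-fold; both axes share the WT array, and 38 of the 43 proteasome genes lie inside the square at the centre.

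The alpha ring, the outer ring of the core, showed no common direction. Of its 7 genes, 3 were above WT on both arrays, 1 was below on both and 3 were on opposite sides, and the median log2 difference was -0.02 (0.11 on array 1 and 0.00 on array 2). Psma6 (alpha1) had signals of 11803 on WT and 14376 and 14300 on the RASSF9-/- arrays. Both RASSF9-/- signals were above WT and nearly equal to each other, with a log2 difference of 0.28 ± 0.30 (SE; adjusted p = 1.00, limma). A second bright probe set of Psma6 gave 0.33, and a dimmer one, with signals of 394.8, 261 and 104.3, gave -1.26. Psma3 (alpha7) had signals of 12866, 14861 and 13400, and Psma4 (alpha3), whose tail takes part in closing the gate, had 7152, 7903 and 7336. Both were above WT on each RASSF9-/- array by less than their standard error (log2 differences of 0.13 ± 0.31 and 0.09 ± 0.31). The other 4 genes, Psma1, Psma2, Psma5 and Psma7, had log2 differences of -0.12 to -0.02, and Psma1 alone of them was below WT on both arrays.

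The beta ring holds the proteolytic sites. Of its 7 genes, 5 were above WT on both RASSF9-/- arrays and 2 (Psmb1 and Psmb2) were below on both, with a median log2 difference of 0.18 (0.12 on array 1 and 0.14 on array 2). Psmb6, which carries the caspase-like site, had signals of 5169 on WT and 5813 and 6590 on the RASSF9-/- arrays. Psmb7 had signals of 15230, 16551 and 18575 in the same order. Psmb5, which carries the chymotrypsin-like site that bortezomib blocks, had signals of 6450, 6515 and 8147. All 3 catalytic subunits were highest on array 2, and Psmb5 on array 1 differed from WT by only 0.01 on the log2 scale. Their log2 differences were 0.26 ± 0.32, 0.20 ± 0.31 and 0.18 ± 0.33 for Psmb6, Psmb7 and Psmb5 (SE), and the 95% interval of Psmb5 ran from -0.63 to 0.98. Among the structural beta subunits, Psmb1 (beta6) had signals of 7955 on WT and 6670 and 6392 on the RASSF9-/- arrays, a log2 difference of -0.28 ± 0.31. It was the proteasome gene farthest below WT, and its 3 bright probe sets disagreed: the dimmer ones gave -0.59 and 0.80. Psmb3 (beta3) had signals of 6183, 7173 and 6821, above WT on both arrays, with a log2 difference of 0.18 ± 0.31. For Psmb4 and Psmb2 the log2 differences were 0.09 and -0.06. A second bright probe set of Psmb4, with signals of 7214, 5143 and 7550, gave -0.21 and put array 1 below WT.

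The ring of 6 ATPases, which unfolds substrates and threads them into the core, lay on the side of higher signal. In 4 of the 6 genes both RASSF9-/- arrays were above WT and in 2 (Psmc1 and Psmc2) they were on opposite sides. The median log2 difference was 0.24, with 0.09 on array 1 and 0.39 on array 2. By the brightest probe sets array 2 was above array 1 in 6 of 6, where 45.1% of all genes had array 2 above array 1. Dividing each array by its median signal places array 2 still higher against array 1. Array 2 carries another date than the other arrays, and the part of the date in this was not tested. Psmc6 (Rpt4) had signals of 5142 on WT and 6560 and 7158 on the RASSF9-/- arrays, a log2 difference of 0.41 ± 0.32. Its 2 dimmer probe sets gave -0.02 and -0.71. Psmc3 (Rpt5) had signals of 5391, 6354 and 7324, a log2 difference of 0.34 ± 0.32 from its only probe set. Psmc5 (Rpt6) had signals of 3797, 4068 and 5110, a log2 difference of 0.26 ± 0.34. In each of these genes both RASSF9-/- arrays lay above the WT array, and no difference passed the test (adjusted p = 1.00, limma). Psmc4, Psmc2 and Psmc1 had log2 differences of 0.22, 0.10 and 0.03. A second bright probe set of Psmc2 had signals of 6901 on WT and 7349 and 6739 on the RASSF9-/- arrays. A dimmer one had 68.1, 143.2 and 98.3, and both put array 2 below array 1.

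The other 11 cap subunits form the scaffold of the base and the lid, which removes the ubiquitin chain. Of these, 4 were above WT on both arrays, 2 (Psmd1 and Psmd2, the large scaffold proteins) were below on both and 5 were on opposite sides. The median log2 difference was -0.04 and was 0.00 and 0.03 on arrays 1 and 2. Psmd7 (Rpn8), a lid subunit, had signals of 1967 on WT and 2670 and 2793 on the RASSF9-/- arrays. Psmd14 (Rpn11), its partner and the metalloprotease that cleaves ubiquitin off the substrate, had signals of 6749, 9950 and 7658. Psmd6 (Rpn7), another lid subunit, had signals of 5944, 6736 and 8624. In all 3 both RASSF9-/- arrays lay above WT, Psmd14 mostly on array 1 and Psmd6 mostly on array 2, and the log2 differences were 0.47 ± 0.34, 0.37 ± 0.34 and 0.36 ± 0.34 (SE; adjusted p = 1.00, limma). A second bright probe set of Psmd6 gave 0.02. Psmd8 (Rpn12), the last subunit to join the lid, had signals of 11664 on WT, 15559 on RASSF9-/- array 1 and 8083 on RASSF9-/- array 2. The RASSF9-/- arrays thus lay on either side of WT, at log2 differences of 0.42 and -0.53, and the mean of both, -0.06, describes neither. The ubiquitin receptor Psmd4 (Rpn10) had a log2 difference of 0.16, and the remaining cap genes, Psmd1, Psmd2, Psmd3, Psmd11, Psmd12 and Psmd13, had differences of -0.16 to -0.02. A second bright probe set of Psmd11, with signals of 5517.1, 4196.2 and 4063.5, was below WT on both arrays and gave -0.42. Its other probe sets above the filter gave -0.03 to 0.04. In all 31 subunits of core and cap, each RASSF9-/- array was under 1.5-fold from WT.

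Assembly factors help build the particle and are not part of the finished one. Of 7, 5 were above WT on both arrays, 0 below on both and 2 (Psmd10 and Psmg2) on opposite sides, with a median log2 difference of 0.28, and 4 of 7 (57.1%) were under 1.5-fold from WT on each array, near the 53.1% of all genes. Psmg1 (PAC1) pairs with Psmg2 (PAC2) in the chaperone on which the alpha ring is built. Psmg1 had signals of 720.5 on WT, 1436 on RASSF9-/- array 1 and 1582 on RASSF9-/- array 2. Both RASSF9-/- signals were close to each other and about 2.09-fold above WT, a log2 difference of 1.06 ± 0.38 (SE; 95% interval 0.15 to 1.98, adjusted p = 0.778, limma). It was the only member whose interval left out 0, and its difference stood at the 95.7th percentile of all genes. Its partner Psmg2 had signals of 1190, 1188 and 1356, a log2 difference of 0.09, and a second probe set of Psmg2 gave 0.11.

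Psmg4 (PAC4) and Psmg3 (PAC3) form the other chaperone pair of the alpha ring. Psmg4 had signals of 450.1 on WT, 1058 on array 1 and 679.7 on array 2, a log2 difference of 0.91 ± 0.47 (adjusted p = 0.997, limma). Both RASSF9-/- arrays lay above WT, but array 2 was -0.64 from array 1 on the log2 scale, and its other probe set was not above background on any array (35.4, 43.7 and 1.6). Psmg3 had signals of 872.6, 986.6 and 1090, a log2 difference of 0.25 ± 0.39. Of the chaperones of the cap's base, Psmd5 (S5b) had signals of 1885 on WT and 2365 and 3240 on the RASSF9-/- arrays, a log2 difference of 0.55 ± 0.37. Psmd10 (gankyrin) had signals of 1248, 1851 and 1240, so that array 1 alone stood above WT, and Psmd9 (p27) had 655.9, 727.5 and 659.3. Pomp, the factor that matures the beta ring and is no member because of its name, had signals of 8735, 8309 and 7572, a log2 difference of -0.14.

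Among the activators, which open the core without the ubiquitin-binding cap, and the inhibitor Psmf1 (PI31), 2 of 4 genes were above WT on both arrays. Psme3 (PA28gamma), a nuclear activator, had signals of 1126 on WT and 1308 and 1779 on the RASSF9-/- arrays, a log2 difference of 0.44 ± 0.40, and its second bright probe set gave -0.18. Psmf1 had signals of 830.5, 1062 and 953.8, a log2 difference of 0.28 ± 0.39, and its dimmer probe sets that passed the filter gave -0.02 and -0.32. Both genes were above WT on each array only by their brightest probe set. Psme4 (PA200), another nuclear activator, had signals of 5179, 4678 and 4327, below WT on both arrays, a log2 difference of -0.20 ± 0.32, and 3 further probe sets gave -0.16 to -0.25 and 1 gave 0.19. Psme3ip1, a protein that binds PA28gamma and is no subunit, had signals of 1773, 1778 and 1493.

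**Figure D3:**
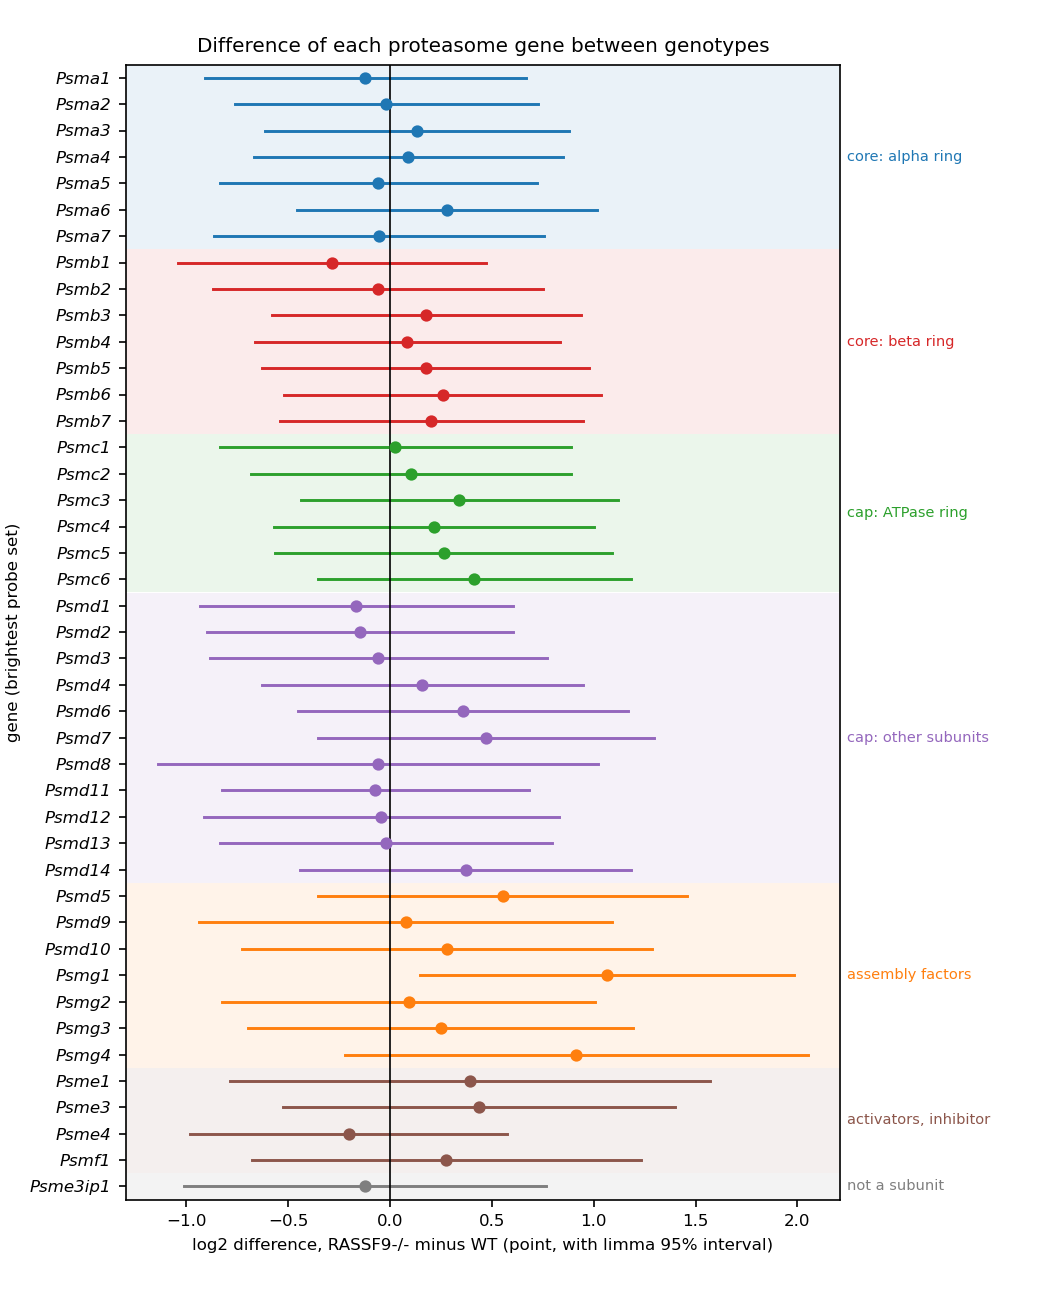
Log2 difference between RASSF9-/- and WT for each of the 43 proteasome genes tested (point; horizontal axis) with the 95% interval of the limma fit (bar), 1 row per gene in the order of its role. Only the bar of Psmg1, from 0.15 to 1.98, does not cross 0, and no gene passed the adjusted test.

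Psme1 encodes PA28alpha, a subunit of the activator cap that interferon raises, and was, of the 43 proteasome genes tested, the one whose RASSF9-/- arrays lay farthest apart. Its signals were 2822 on WT, 5323 on RASSF9-/- array 1 and 2580 on RASSF9-/- array 2. Array 1 was 0.92 above WT on the log2 scale and array 2 was 0.13 below it, so that the fitted difference of 0.39 ± 0.49 describes neither array. The inducible catalytic subunits, which interferon also raises and which the choice of genes left out, had the same order of both RASSF9-/- arrays. Psmb8, which takes the place of Psmb5, had signals of 47.7 on WT, 990.2 on array 1 and 225.4 on array 2. Psmb10, which takes the place of Psmb7, had signals of 274.8, 1301 and 736. Psmb9, which takes the place of Psmb6, had signals of 57.5, 295 and 86.4. In all 3 genes both RASSF9-/- arrays were above WT, and array 1 was the highest.

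WT was under the bacterial background for Psmb8 and Psmb9, which gives lower bounds. For Psmb8 these were 12.6-fold above WT on array 1 and 2.9-fold on array 2 (6.03-fold for the geometric mean of both). For Psmb9 they were 3.76-fold and 1.10-fold (2.04-fold), so array 2 lay only just above background. The WT signals of both genes were also under the signal filter of 82.7, which the genes passed only through the RASSF9-/- arrays. The limma fit used the signals as measured, with log2 differences of 3.31 for Psmb8 (adjusted p = 0.542) and 1.47 for Psmb9 (adjusted p = 1.00). For Psmb10 the log2 difference was 1.83 ± 0.51 (SE; adjusted p = 0.549). No inducible subunit passed the adjusted test. Their constitutive counterparts Psmb5, Psmb7 and Psmb6 had log2 differences of 0.18, 0.20 and 0.26, with array 2 the highest in each. The summed signal of the 6 leukocyte markers had the order of the inducible subunits, with 217.4 on WT, 683.4 on array 1 and 281.5 on array 2. Of these markers, 3 of 6 (Ptprc, Cd52 and Cd207) were under background on every array and none was above it on all. Ptprc, which encodes the leukocyte antigen CD45, had signals of 31.5, 71.3 and 36.1, and Laptm5 had 62.1, 246.7 and 131.8. Tyrobp and Fcer1g had the order of the sum too, whereas Cd52 (45.6, 74.8 and 26.6) and Cd207 (14.1, 11.8 and 5.8) were lowest on array 2. The part of leukocyte RNA in the values of Psme1 and the inducible subunits was not tested.

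**Figure D4:**
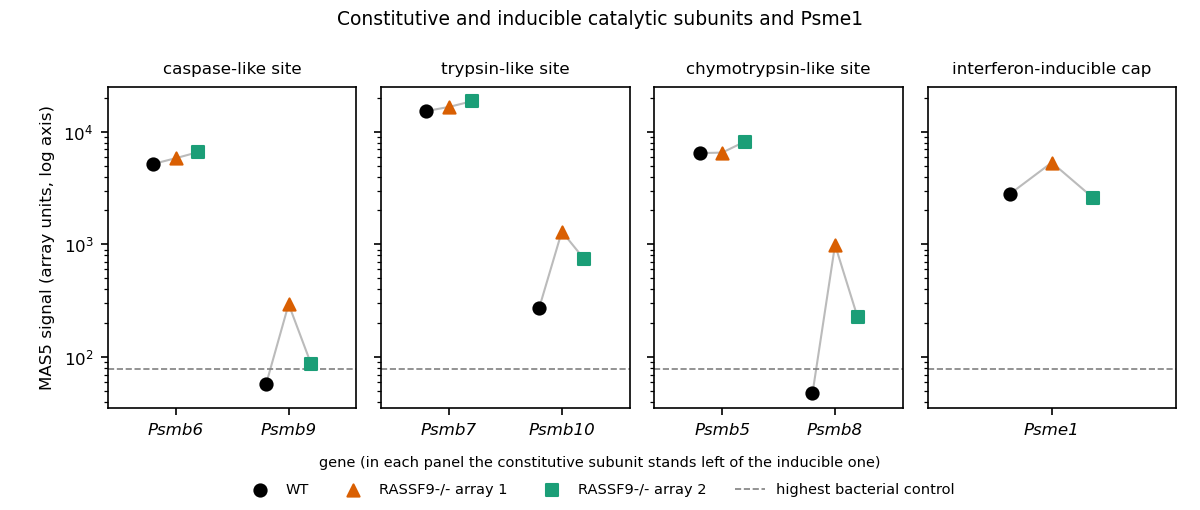
MAS5 signal (array units, log axis) of the constitutive catalytic subunits Psmb6, Psmb7 and Psmb5, each beside its inducible counterpart Psmb9, Psmb10 or Psmb8, and of Psme1, with a circle for WT, a triangle for RASSF9-/- array 1 and a square for RASSF9-/- array 2, joined only to guide the eye. The dashed line is the highest bacterial control, 78.4; the inducible subunits and Psme1 peak on array 1, whereas the constitutive subunits are highest on array 2, and levels of different probe sets are not comparable.

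Promoter sequence was set beside these values for the genes with a RefSeq entry in build GRCm38.p6, from 250 bases before to 50 bases after each annotated start, read along the gene's strand. Of the 46 proteasome genes, 38 had such a window (41 windows, since some genes have several starts), and 8, Psma8, Psmb1, Psmb2, Psmb7, Psmc3, Psmd3, Psmd7 and Psmg2, had none. The 250 bases before the start are shown for Psmb5, whose signals lay close to WT, and for Psmg1, the member with the greatest difference. Capitals mark matches to 4 of the motifs described next, the antioxidant, interferon-stimulated, gamma-activated and ETS ones.
Psmb5 (chr14:54617996-54618245, - strand): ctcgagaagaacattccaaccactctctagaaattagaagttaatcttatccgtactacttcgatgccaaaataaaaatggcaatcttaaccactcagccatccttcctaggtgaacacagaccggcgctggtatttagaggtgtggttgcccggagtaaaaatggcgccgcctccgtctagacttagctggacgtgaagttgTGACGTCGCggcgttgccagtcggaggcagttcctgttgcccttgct
Psmg1 (chr16:95990961-95991210, - strand): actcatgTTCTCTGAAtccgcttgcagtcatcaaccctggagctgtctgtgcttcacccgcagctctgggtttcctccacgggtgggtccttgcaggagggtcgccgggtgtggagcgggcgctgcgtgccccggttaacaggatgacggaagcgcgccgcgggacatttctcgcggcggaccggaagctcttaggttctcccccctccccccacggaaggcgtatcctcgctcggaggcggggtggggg
In Psmb5 the capitals are TGACGTCGC at position -47 from the start, a match to the core of the antioxidant response element bound by NRF1 and NRF2. In Psmg1 they are TTCTCTGAA at position -243, a match to the gamma-activated site bound by STAT factors.

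The 6 motifs were searched on both strands, and matches of different motifs may overlap. The antioxidant response element core, TGACNNNGC, occurred in 6 of 41 proteasome windows (14.6%; Psmb5, Psmb6, Psmc6, Psmd9, Psmd12 and Psme4) and in 12.39% of all 32851 windows. The core of the interferon-stimulated response element, GAAANNGAA, occurred in 7 (17.1%; Psmb3, Psmb4, Psmc2, Psmd4, Psmd9, Psme1 and Psmg4) and in 8.56% of all. The gamma-activated site, TTCNNNGAA, occurred in 2 (4.9%; Psmd2 and Psmg1) and in 8.3% of all, and the CCAAT box in 15 (36.6%) and in 37.41%. The site of nuclear respiratory factor 1, GCGCANGCG, occurred in 7 (17.1%; Psma2, Psma3, Psma4, Psmc4, Psmc5, Psmd14 and Psmg1) and in 6.25% of all. The ETS site CCGGAAGT occurred in 10 of 41 (24.4%) and in 3.89% of all windows. The proteasome windows were richer in G and C before the start, with a median of 57.6% against 52.4% over all windows, and the share of these letters in the matches was not tested. A match is a run of letters and does not show that a factor binds.

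The 10 windows with the ETS site belong to 9 genes, of which Psmc2 has a match before each of 2 starts. They are shown with 10 bases to each side of the match, which is in capitals and reads ACTTCCGG where the site lies on the other strand, since this was the motif whose share differed most between proteasome windows and all windows.
Psma6 (chr12:55398831-55398858, + strand): agtagccataACTTCCGGgagggggctt
Psmc1 (chr12:100110163-100110190, + strand): tggtggatgcACTTCCGGcggtggcgat
Psmc2 (chr5:21785180-21785207, + strand): accagtgagcACTTCCGGgatggggctc
Psmc2 (chr5:21786712-21786739, + strand): gcgcggagctACTTCCGGtggggaagag
Psmd12 (chr11:107479500-107479527, + strand): tgagcgggcgACTTCCGGtgcgagtgac
Psmd13 (chr7:140882378-140882405, + strand): gcccgcggtgCCGGAAGTgagcgagcac
Psmd6 (chr14:14120973-14121000, - strand): agagacgcgaCCGGAAGTcagactggcg
Psme3 (chr11:101316204-101316231, + strand): ctgtgacgcaACTTCCGGcgtgagcggc
Psme4 (chr11:30771712-30771739, + strand): tggccccgccCCGGAAGTgacttgaggc
Psmg3 (chr5:139826873-139826900, - strand): cggacaggaaCCGGAAGTtctcgccggg
These 9 genes come from the alpha ring, the ATPase ring, the lid, the assembly factors and the activators. Psma6, Psmd6, Psme3 and Psmg3 were above WT on both RASSF9-/- arrays, Psme4 was below on both, and Psmc1, Psmc2, Psmd12 and Psmd13 were on opposite sides.

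The interferon-stimulated core lies just after the start in both Psme1 and Psmg4, which were among the 3 members at least 1.5-fold above WT on RASSF9-/- array 1. Psmg1, the third of them, has no match to this core. Psme1 and Psmg4 were chosen for display after the values were seen, and no relation of the core to the signals was tested. The matches are shown with 10 bases to each side and in capitals, in Psme1 as TTCGCTTTC from the other strand.
Psmg4 (chr13:34162969-34162997, + strand): gcgcgcatctGAAAGTGAAagagcgttcc
Psme1 (chr14:55578494-55578522, + strand): gagctgtgctTTCGCTTTCccttcccgct
Of the other 5 genes with this core, Psmb3, Psmb4 and Psmd4 were above WT by log2 differences of 0.21, 0.16 and 0.27 on array 1, Psmd9 by 0.15, and Psmc2 was 0.06 below it. For the inducible Psmb8 and Psmb9 no match to the interferon-stimulated core was found, and Psmb9 matched only the CCAAT box. For the inducible Psmb10 no match to any of the motifs was listed, and whether it had a window was not recorded. Only Psmb8 of these matched the gamma-activated site, which occurred in 8.3% of all windows. Its match, TTCCCAGAA at position -97, is in capitals here.
Psmb8 (chr17:34197945-34198194, + strand): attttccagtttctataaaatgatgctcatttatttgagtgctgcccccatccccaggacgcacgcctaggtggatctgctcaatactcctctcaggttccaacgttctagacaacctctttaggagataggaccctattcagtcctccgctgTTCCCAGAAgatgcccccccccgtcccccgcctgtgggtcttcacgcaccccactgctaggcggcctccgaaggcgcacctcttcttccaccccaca

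Genes that regulate or feed the proteasome were read from fixed lists. Of 15 regulators and partners of the particle 12 were tested and 0 passed the adjusted test in either direction; 3 were above WT on both arrays and 3 below on both, with a median log2 difference of -0.01. Nfe2l1, which encodes NRF1, the factor that raises proteasome genes when the particle is inhibited, had signals of 3261 on WT, 3628 on array 1 and 1424 on array 2. Nfe2l2, which encodes NRF2, had signals of 3693, 2969 and 2469, below WT on both arrays, a log2 difference of -0.45 ± 0.35, and Ngly1, the enzyme that removes sugars from NRF1, had 656.8, 564.2 and 500. No relation between these signals and those of the proteasome genes was tested.

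Both deubiquitinases that dock on the cap were above WT on each RASSF9-/- array. Uchl5 had signals of 1616 on WT and 1953 and 2709 on the RASSF9-/- arrays, a log2 difference of 0.51 ± 0.38. Usp14 had signals of 2015, 2272 and 2766, a log2 difference of 0.31 ± 0.36. Both were highest on array 2, as were all 6 ATPases by their brightest probe sets. Of 10 shuttle factors and unfoldase genes 9 were tested, with 3 above WT on both arrays, 1 (Ubqln1) below on both and a median of 0.03. Of 8 genes of ubiquitin and its activation only 3 had a probe set with a single symbol that passed the filter, with log2 differences of 0.11 for Nedd8, 0.10 for Uba3 and -0.25 for Uba6. None of these genes passed the adjusted test.

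Other multi-subunit complexes gave a measure of how far such sets lay from WT. The COP9 signalosome, whose subunits are relatives of the lid, had 5 of 9 genes above WT on both arrays and 2 below on both, with a median log2 difference of 0.28. Cops4 had signals of 973.4 on WT and 1242 and 1608 on the RASSF9-/- arrays. The CCT chaperonin, which folds actin and tubulin, had 8 of 8 genes above WT on both arrays, with log2 differences of 0.23 to 0.67 and a median of 0.44. Cct6a had the largest of these, with signals of 7256 on WT and 9792 and 13521 on the RASSF9-/- arrays. The medians of the proteasome core (0.09) and cap (0.10) lay between those of all genes and of both complexes, and 0 genes of any of these complexes passed the adjusted test; the differences between complexes were not tested.

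Of the 43 tested genes, 21 had more than 1 probe set above the signal filter and 22 had 1. In 7 of the 21 all such probe sets placed the RASSF9-/- arrays alike: above WT on both arrays for Psmb3, Psmc4, Psmd7 and Psmd9, below WT on both for Psma1, and on opposite sides for Psma5 and Psma7. Both probe sets of Psmc4 gave log2 differences of 0.22 and 0.10, and those of Psmb3 gave 0.18 and 0.14. In the other 14 genes the probe sets disagreed on the side of WT, and 22 of the 43 genes rest on a single probe set above the filter, Psmg1, Psmg4 and Psme1 among them.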

How the data were processed

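Expression was measured on 1 array per sample, with 1 WT and 2 RASSF9-/- samples grouped by their titles. The values are MAS5 signals as deposited by the authors, 1 linear intensity for every probe set, with each array scaled to a mean of 500 after 2% was trimmed from either end, which the values bear out. The version of the software is not given in the sources used here. MAS5 scaling hides any change in total RNA per cell. The table holds no detection calls, so the highest of 15 Bacillus control probe sets served as background. The number of probes and of arrays limits the precision of each value.

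Log2 signals were computed without a pseudocount. Of 45101 probe sets, 64 are controls, 34945 have 1 gene symbol, 932 several and 9160 none. All 46 symbols of the proteasome genes were found in the RefSeq table, and 0 changed. The signal filter was the 50th percentile of mean log2 signal over all probe sets other than controls, a signal of 82.7. The 11089 genes whose brightest probe set reached it were kept, with that probe set for each gene. The comparison of RASSF9-/- with WT used limma 3.58.1 in R 4.3.3 (lmFit, then eBayes with an intensity trend), two-sided, with Benjamini-Hochberg adjustment over all genes and 5.31 prior degrees of freedom. The array date could not be a term, since no residual degree of freedom would remain. The code was tested on simulated data.

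The proteasome genes, their classes and the lists were chosen with earlier results of these data known. Named were the catalytic and inducible subunits, in each class up to 3 genes by the smaller of both differences from WT among those on 1 side on both arrays, the 3 genes whose RASSF9-/- arrays differed most, the brightest and the dimmest, and from every list up to 4 genes ranked as for the classes. Other members, Nfe2l1 and Pomp, and the motifs were chosen after the values were seen. The alternatives were another scaling, filter, pseudocount, rule for probe sets, trend, background floor or test, and leaving out each RASSF9-/- array. Promoter windows came from RefSeq (GRCm38.p6).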

Additional observations from a re-analysis of the deposited data

How the results depend on the processing

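The count of 0 proteasome genes past the adjusted test held with every scaling, filter, pseudocount, probe set rule, trend and floor tried. The t-test of the study's methods gave 2 at an unadjusted p under 0.05 and 0 after Benjamini-Hochberg adjustment. Over all genes, the count of 9 fell to 0 without the intensity trend, with quantile normalization and with the background floor, and to 5 with the filter at the 75th percentile and with a pseudocount of 32. The methods' t-test gave 493 genes unadjusted and 4 adjusted.

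The median log2 difference of the proteasome genes, 0.13, was 0.15 after dividing each array by its median, without a filter and with the floor, 0.12 with quantile normalization and 0.036 with the mean of all probe sets of a gene. Without RASSF9-/- array 1 or array 2 it was 0.14 and 0.14. The latter compares the 2 arrays of the same date and is the value within that date. It is 1 array against 1, with no test, and each array alone had 30 of 43 genes above WT and 13 below, against 23 and 6 on both. With both arrays kept, other settings gave 16 to 24 genes above WT on both and 6 to 9 below on both. Dividing each array by its median moved the median of array 2 minus array 1 from -0.01 to 0.27, so that the order of both RASSF9-/- arrays depends on the scaling.

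The median of the assembly factors, 0.28, was 0.29 with median scaling, 0.31 with quantile normalization, 0.27 with the pseudocount, 0.20 with the mean of probe sets, and 0.32 to 0.33 on single arrays. With quantile normalization the beta ring was at 0.12 and the other cap subunits at -0.066. Leaving out an array gave 0.12 to 0.14 for the beta ring, 0.0043 to 0.031 for the other cap subunits, 0.0027 to 0.11 for the alpha ring and 0.035 to 0.29 for the activators and inhibitor. The last class was at -0.23 with the mean of probe sets.

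Of 675 values of 68 named genes under 10 alternatives, 646 kept their sign, and none of those with a test passed it after adjustment. On a single RASSF9-/- array the sign turned in 15 genes, the 14 proteasome genes with arrays on opposite sides of WT and Nfe2l1. The 14 that reversed in another setting all came from the mean of all probe sets: Psma3 -0.061, Psma5 0.63, Psma7 0.020, Psmb4 -0.063, Psmc1 -0.77, Psmc6 -0.10, Psmd4 -0.21, Psmd11 0.39, Psmd13 0.16, Psme3 -0.69, Psmf1 -0.029, Psmg2 -0.085, Psmg4 -0.58 and Rad23b -0.11. For Psma3, Psma7, Psmb4, Psmc6 and Psmd4 this mean adds only probe sets that passed the signal filter. The cause was not tested. No paired analysis was possible because WT has 1 array and the replicate numbers of both groups share fewer than 2 values.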
